A study of Danio rerio with 3 samples.

Results

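The Mx family and interferon-induced genes described here were *mxa*, *mxb*, *mxc*, *mxe*, *mxf*, *isg15*, *rsad2*, *ifitm1*, *stat1a* and *stat1b*, 10 of the 32521 genes in the deposited tables, and each symbol was found once. They were chosen by name, with their levels across cell types and between the libraries of this series already known, so the levels and ratios below are a description and carry no test. The study asked how disruption of *sema4ab*, a semaphorin gene of macrophages and microglia, alters the cells of a spinal lesion site in larval zebrafish. Larvae were injected at the single-cell stage with a control guide RNA (gControl) or with a highly active crRNA (haCR) against *sema4ab* (gSema4ab), which gives mosaic somatic mutants and not a mutant line. All larvae received a spinal lesion at 3 days post-fertilization, and tissue around the lesion was taken 1 day later, at 4 days, from 50 larvae per sample. No unlesioned larvae were analysed, so the lesion was common to every library. Viable cells were profiled by droplet single-cell RNA sequencing of transcript 3′ ends. There was 1 gControl library. The study describes gSema4abR1 and gSema4abR2 as technical repeats, while the sample labels call them replicates. Whether they came from 1 pool of larvae is not settled, and they were treated as 1 pool. So no value between gControl and gSema4ab has a check over animals, and intervals cover counting error only.

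Interferons are cytokines that signal through paired receptor chains and JAK kinases to STAT transcription factors, which switch on a shared set of antiviral genes. Mx proteins are dynamin-like GTPases of that set, *isg15* encodes a ubiquitin-like protein that is joined to other proteins, and *rsad2* encodes viperin. IFITM proteins sit in membranes and in mammals restrict virus entry. No sequence of these genes was used here, and reads that fit more than one closely related Mx copy could have been lost or split in the counting, which was not tested. In the RefSeq gene order of another assembly, GRCz12tu, *mxa* and *mxb* are neighbours, *mxc* and *mxe* are neighbours, and *mxf* lies apart from both pairs. The Mx genes *mxd* and *mxg* are not in the set and are given below with the other genes of the pathway.

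After filtering, 12247, 12079 and 11940 cells were kept in gControl, gSema4abR1 and gSema4abR2, with median depths of 7199, 6477 and 6737.5 unique molecular identifiers (UMIs, each one counted transcript) per cell. Levels are UMIs per 1000000 UMIs of the cells summed (CPM). The libraries shared between 34 and 45 cell barcodes pairwise. *sema4ab* itself, over every deposited barcode, stood at 50.0, 29.1 and 30.2 CPM, and its transcript remains countable because the haCR alters DNA sequence. The labels give the tissue as spinal cord, but of the 36266 cells 190 were ERG-like (ependymo-radial glia, the spinal progenitors), 2086 were neuron-like and 8712 were fibroblast-like, and unnamed cluster 1, where 11 neuron markers stood out but depth was low, held 2137. Cells were grouped into 44 clusters, of which 32 were named from marker genes as 15 cell classes. These hold 83.8% of the cells, and the name "X-like" rests on rebuilt clusters that may differ from those of the study.

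Over all cells, *mxf* was the gene of the set with the largest ratio, and both repeats lay far below gControl. *mxf* stood at 26.8 CPM (3284 UMIs) in gControl, 9.07 CPM (1029 UMIs) in gSema4abR1 and 8.97 CPM (1025 UMIs) in gSema4abR2, and the log2 ratio was -1.57 (95% exact interval -1.65 to -1.49). Set against gSema4abR1, gSema4abR2 was at -0.02 on the log2 scale. The 10 cells with the most *mxf* held 25.7% of its UMIs in gControl, and UMIs of 1 cell are not independent, so the intervals are too narrow for sampling of cells.

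*stat1a*, the most widely detected gene of the set, stood at 86.6, 53.2 and 52.3 CPM, a log2 ratio of -0.71 (-0.75 to -0.68). Its UMIs were present in 38.8%, 29.6% and 29.1% of cells in the same order. *mxc* was at 7.78, 4.56 and 4.86 CPM, a log2 ratio of -0.72 (-0.85 to -0.60), and *stat1b* at 2.18, 1.47 and 1.41 CPM, a log2 ratio of -0.60 (-0.84 to -0.36). For these genes both repeats lay below gControl and close to each other. Ratios over all cells also depend on how many cells of each class a library held. Basal epidermis-like cells, the class with the highest *mxc* level, numbered 1010, 742 and 814, and the part of cell numbers was not tested.

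*ifitm1* went the other way. It was counted at 74.8 CPM in gControl, 143.9 CPM in gSema4abR1 and 105.4 CPM in gSema4abR2, a log2 ratio of 0.74 (0.70 to 0.77), and the repeats differed by -0.45, more than counting error allows. *ifitm1* UMIs were present in 6.95%, 10.99% and 9.85% of cells, so the gene was also found in more cells.

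The remaining genes were scarce. *isg15* was at 1.57, 1.19 and 1.55 CPM, with a log2 ratio of -0.19 (-0.46 to 0.07) that was 0.23 with doublets kept and 0.02 with TMM scaling. *rsad2* was at 0.38, 0.56 and 0.47 CPM, with a log2 ratio of 0.45 (-0.05 to 0.98) that was 0.01 with doublets kept. The 3 scarcest Mx genes had 15 to 39 UMIs per library, found in 14 to 34 cells of each. The log2 ratio was -0.07 for *mxa*, 0.05 for *mxe* and -0.88 (-1.57 to -0.21) for *mxb*, and no difference of *mxa* or *mxe* was detectable at this depth.

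**Figure D1:**
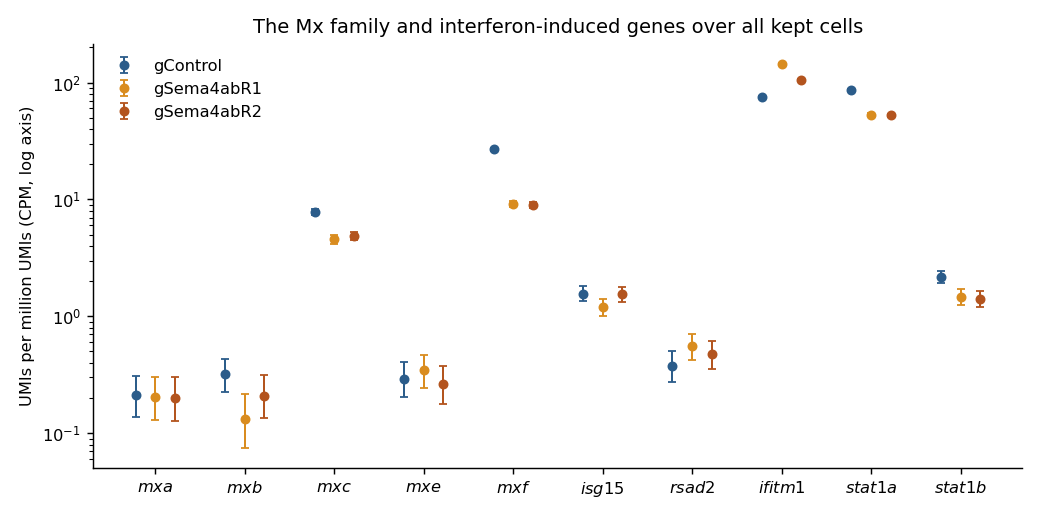
Level of each of the 10 genes in CPM (log axis) over all kept cells of gControl, gSema4abR1 and gSema4abR2. Points are single libraries and bars are exact 95% Poisson intervals, and *mxf* is at 26.8 CPM in gControl against 9.07 and 8.97 CPM in the repeats while *ifitm1* is higher in both repeats than in gControl.

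A gene was called when its mean gSema4ab level differed at least 2-fold from gControl, both repeats lay on that side and at least 20 UMIs were counted over the 3 libraries. By this rule 1 of the 10 genes, *mxf*, was lower and 0 were higher, against 7.39% lower and 2.21% higher of the 25058 genes with enough UMIs. The median log2 ratio of the 10 genes was -0.40, beside -0.21 for all genes. These ratios depend on what the libraries are scaled to. Scaling by trimmed mean of M-values (TMM) shifted the median of all genes by 0.21, to 0.00, and the median of the 10 genes to -0.19.

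The 10 genes lay in different cell classes. In gControl, *mxf* led in macrophage/microglia-like cells at 141 CPM (136 to 147) and then in neutrophil-like cells at 67.1 CPM (61.5 to 73.0), which did not overlap. Every other named class had at most 4.41 CPM, and its neighbours in the order had overlapping intervals. Macrophage/microglia-like and neutrophil-like cells held 80.6% and 16.4% of the *mxf* UMIs of gControl. The plot of class levels in gControl shows these differing homes side by side.

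*mxc* led in basal epidermis-like cells at 33.5 CPM (30.8 to 36.4), with macrophage/microglia-like cells next at 17.6 CPM (15.7 to 19.6). By single clusters the classes were mixed. *mxc* was at 57.8 and 14.4 CPM in basal epidermis-like clusters 13 and 10, and at 35.6 CPM (31.8 to 39.6) in macrophage/microglia-like cluster 4. *ifitm1* was highest in macrophage/microglia-like cells at 195 CPM (189 to 201), followed by neutrophil-like cells at 129 CPM, fibroblast-like cells at 116 CPM and smooth muscle-like cells at 93.1 CPM, each apart from the next. By single clusters the order of the first classes turned, with *ifitm1* at 521 CPM in neutrophil-like cluster 21 and 369 CPM in macrophage/microglia-like cluster 4. *stat1a* was found in every class. Its level was highest in ionocyte-like cells at 531 CPM (475 to 593) and in epidermis-like cells at 246 CPM (238 to 254), whereas red blood cell-like cells had 22.3 CPM.

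*stat1b* was counted mainly in skin, at 7.61 CPM (6.36 to 9.03) in basal epidermis-like and 5.2 CPM (4.13 to 6.46) in epidermis-like cells, whose intervals overlap. *isg15* was at 6.03 CPM (4.97 to 7.25) in macrophage/microglia-like cells, and the higher ERG-like value of 10.4 CPM rests on 4 UMIs. *rsad2* was concentrated in unnamed cluster 28, led by the myelin genes *mbpa* and *mbpb* and tied between markers of neural crest glia and oligodendrocytes. There it stood at 57.2, 62.5 and 64.4 CPM (23, 23 and 24 UMIs), which is 50.0% of all its UMIs in gControl and did not differ beyond counting error between the libraries. Of *mxe*, 8, 12 and 12 UMIs came from unnamed cluster 31, at 15.3, 14.8 and 9.25 CPM.

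**Figure D2:**
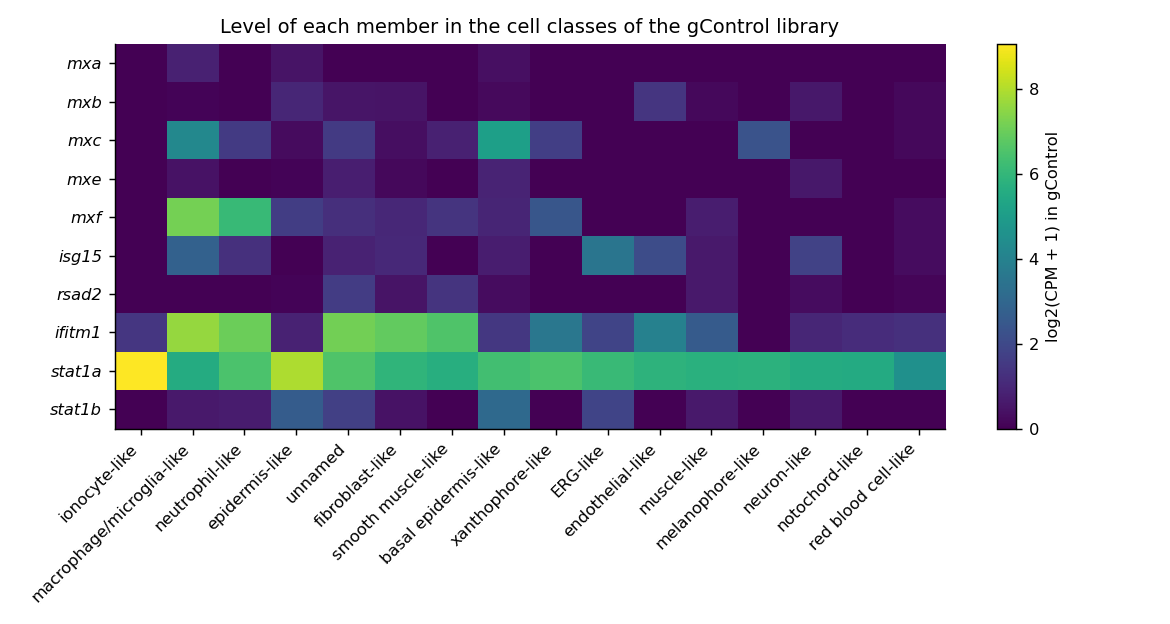
Level of each gene as log2(CPM + 1) in the cell classes of the gControl library, with classes ordered from left to right by the summed level of the 10 genes. *mxf* is bright in macrophage/microglia-like (141 CPM) and neutrophil-like cells (67.1 CPM), *mxc* in basal epidermis-like cells (33.5 CPM), and *stat1a* in every column with a peak in ionocyte-like cells (531 CPM).

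Summed over the 10 genes, ionocyte-like cells led in gControl at 533 CPM, which is almost all *stat1a*, followed by macrophage/microglia-like cells at 408 CPM and neutrophil-like cells at 289 CPM. Red blood cell-like cells were last at 24.5 CPM. These cells served as the reference for free RNA. They held 3, 3 and 1 *mxf* UMIs, 2, 1 and 1 *mxc* UMIs and 18, 33 and 20 *ifitm1* UMIs, all at or below 1.97 CPM, but 22.3, 15.8 and 14.8 CPM of *stat1a*.

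Within macrophage/microglia-like cells, 3 of the 7 genes with enough UMIs were at least 2-fold lower in gSema4ab (*mxf*, *mxc* and *isg15*) and 0 were higher, against 5.89% lower and 3.56% higher of all genes tested in that class. *mxf* was counted at 141 CPM (2646 UMIs) in gControl, 42.6 CPM (796 UMIs) in gSema4abR1 and 46.9 CPM (792 UMIs) in gSema4abR2, a log2 ratio of -1.66 (-1.75 to -1.57). *mxc* stood at 17.6, 6.80 and 6.70 CPM, a log2 ratio of -1.38 (-1.63 to -1.13). *isg15* was at 6.03, 2.41 and 2.79 CPM, a log2 ratio of -1.21 (-1.63 to -0.81). For all 3 genes the repeats lay together below gControl. One gControl cell held 34 of its 113 *isg15* UMIs, and without the top cell of each library the ratio was -0.89 and *isg15* was no longer called.

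*ifitm1* was also lower in these cells, at 195, 112 and 97.8 CPM, a log2 ratio of -0.89 (-0.96 to -0.82). For *stat1a* the values were 46.3, 38.2 and 36.5 CPM and the log2 ratio -0.31 (-0.43 to -0.19), which was -0.13 with TMM scaling within the class. The median of the 7 genes was -0.89, beside -0.17 for all genes of the class. Cell numbers were alike, with 1001, 1029 and 1068 cells, and median depth was 18991, 17594 and 14869.5 UMIs.

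The class held 2 clusters, and the differences of *mxf* and *mxc* came from cluster 4. Its leading genes include *mfap4*, *havcr1* and *apoc1*, and 16 of its class markers stood out, among them *mpeg1.1* and *csf1ra*. In cluster 4 *mxf* was at 284, 84.4 and 89.0 CPM, a log2 ratio of -1.71 (-1.81 to -1.62), and this cluster alone held 79.8% of the *mxf* UMIs of gControl. In cluster 12, named on only 3 markers (*csf1rb*, *cxcr3.2* and *mrc1b*), *mxf* was at 2.73, 1.28 and 2.79 CPM. *isg15* was at 10.3, 3.45 and 2.78 CPM in cluster 4 and at 1.89, 1.38 and 2.79 CPM in cluster 12. *ifitm1* was lower in both clusters, with log2 ratios of -0.92 (-0.99 to -0.85) and -0.97 (-1.21 to -0.68).

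Both the number of *mxf*-positive cells and the count per positive cell were lower. Of the cells in cluster 4, 254 of 584 in gControl (43.5%) had an *mxf* UMI, against 175 of 601 (29.1%) and 177 of 690 (25.7%). Among those cells the median was 4 UMIs in gControl and 2 in each repeat. At least 10 UMIs were found in 70 gControl cells, 23 gSema4abR1 cells and 19 gSema4abR2 cells, and the highest single cell had 120, 34 and 37. The tenth of the cells with the most *mxf* held 73.7%, 76.9% and 80.6% of its UMIs, so expression was concentrated in few cells in every library.

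Thinning every cell to 2000 UMIs, which left out 1445, 1692 and 1730 shallower cells, gave the same order. An *mxf* UMI remained in 12.7% (10.7 to 15.0), 6.39% (4.93 to 8.11) and 6.55% (5.05 to 8.34) of macrophage/microglia-like cells, and in 0 of 1640, 0 of 1698 and 0 of 1584 red blood cell-like cells, which by the exact upper limit allows up to 0.225%, 0.217% and 0.233%. Median depth before thinning was 4198, 5230.5 and 5989 UMIs in red blood cell-like cells. The log2 ratio of the thinned shares was -0.97 for *mxf* and -0.54 for *mxc*, smaller than the ratios of CPM. For *mxc* the thinned shares were 2.78% (1.82 to 4.05), 1.96% (1.18 to 3.04) and 1.83% (1.07 to 2.91), with overlapping intervals. Before thinning, an *mxc* UMI was found in 85 of 584, 71 of 601 and 75 of 690 cells of cluster 4. Among those cells the median was 2 UMIs in gControl and 1 in each repeat. At least 10 *mxc* UMIs were found in 10 gControl cells and in 1 cell of each repeat. The highest single cell had 33, 15 and 14. Without the top cell of each library, the *mxc* ratio of CPM in macrophage/microglia-like cells was -1.41.

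Within cluster 4, *mxc* was found more often beside *mxf*. After thinning, 20 of 118 gControl cells with *mxf* (16.9%) also had *mxc*, against 6 of 413 cells without *mxf* (1.45%). In gSema4abR1 the shares were 8.20% of 61 cells and 2.80% of 500 cells, and in gSema4abR2 6.56% of 61 cells and 2.53% of 514 cells. *ifitm1* was found in 36.4% of *mxf*-positive and 24.9% of other gControl cells of the cluster, and the gap was smaller in gSema4abR1, at 18.0% and 15.4%, and in gSema4abR2, at 14.8% and 13.4%. *stat1a* was found in 10.17% and 12.3% in gControl, 13.1% and 7.60% in gSema4abR1 and 8.20% and 9.53% in gSema4abR2, so its order was not the same in every library.

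The microglial marker *apoeb* was higher in gSema4ab in cluster 4, at 1602, 1935 and 2567 CPM, and the split of the cluster by *apoeb* was therefore examined. An *apoeb* UMI was found in 186, 286 and 339 cells and in none of 398, 315 and 351. *apoeb* was not among the class markers that stood out in cluster 4. It was a leading gene of basal epidermis-like cluster 13, and the part of free RNA in this split was not tested. In cells with an *apoeb* UMI *mxf* was at 330.2, 79.1 and 73.3 CPM, a log2 ratio of -2.11 (-2.26 to -1.97), and in cells without one at 263, 88.8 and 103 CPM, a log2 ratio of -1.45 (-1.58 to -1.34). *mxf* was lower on both sides of the split. At a finer clustering, cluster 7 with the highest *apoeb* (2878 CPM in gControl) had *mxf* at 430.5, 106 and 95.8 CPM, the proliferating cluster 13 (*mki67* at 666 CPM) at 76.1, 29.2 and 31.8 CPM, and cluster 42 with almost no *apoeb* (2.04 CPM) at 146, 57.4 and 87.6 CPM. The remaining finer cluster, 29, had 1, 1 and 3 *mxf* UMIs. *isg15* followed this only in part, at 21.3, 4.30 and 2.53 CPM in cluster 7 but at 1.31, 2.26 and 2.95 CPM in cluster 13.

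Markers of other cells were counted beside these values. In cluster 4 the 12 neutrophil markers summed to 1648, 1589 and 1480 CPM, with 1 marker at 0 in each library. Single markers differed, with *lyz* at 73.8, 33.7 and 25.7 CPM and *mpx* at 75.6, 79.3 and 35.5 CPM. The 10 red blood cell markers summed to 2027, 2581 and 5441 CPM, with none at 0. The 13 epidermis markers summed to 5431, 6662 and 6349 CPM, also with none at 0, and the part of any of these lists in the *mxf* values was not tested. The cluster's own 17 macrophage/microglia markers summed to 9393, 10885 and 12618 CPM, higher in both repeats than in gControl. *mpeg1.1*, a defining macrophage gene, was at 306, 331 and 320 CPM, and *sema4ab* in this cluster was at 300.1, 117 and 145 CPM.

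**Figure D3:**
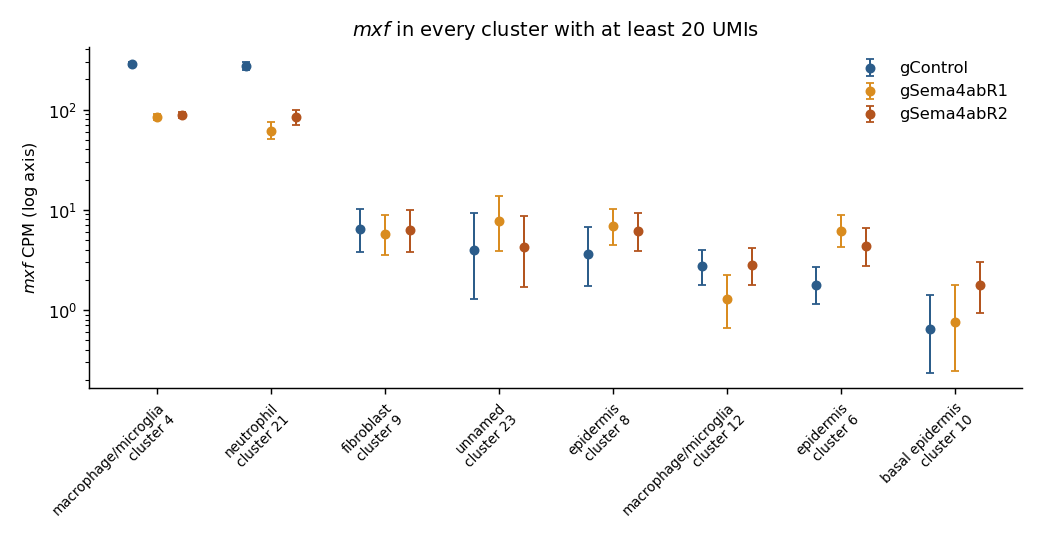
*mxf* level in CPM (log axis) in each cluster with at least 20 *mxf* UMIs, by library, with exact 95% Poisson intervals. Macrophage/microglia-like cluster 4 and neutrophil-like cluster 21 stand near 280 CPM in gControl and below 90 CPM in both repeats, and every other cluster lies under 10 CPM in all libraries.

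In neutrophil-like cells 1 of 4 genes with enough UMIs, *mxf*, was at least 2-fold lower and 0 were higher, against 5.82% and 3.53% of all genes tested there. The level of *mxf* was 67.1, 19.2 and 24.8 CPM, a log2 ratio of -1.60 (-1.84 to -1.39). One gControl cell held 172 of the 538 UMIs, and without the top cell of each library the ratio was -1.24. Nearly all of it came from cluster 21, led by the inflammatory genes *mmp9*, *il1b* and *cxcr1*, where *mxf* was at 273, 61.7 and 83.7 CPM. The shares of cells with a UMI there were 83 of 215 (38.6%), 48 of 217 (22.1%) and 53 of 182 (29.1%), and the 2 repeats had 1 cell each with at least 10 UMIs against 13 in gControl. Median depth of neutrophil-like cells was 14331, 11942 and 9722 UMIs. After thinning to 2000 UMIs, an *mxf* UMI remained in 8.70%, 4.17% and 6.08% of neutrophil-like cells. The interval of each repeat overlapped that of gControl, so the thinned shares do not separate the libraries.

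In the same cluster 21 *ifitm1* was at 521, 386 and 312 CPM, a log2 ratio of -0.58 (-0.69 to -0.44), and *stat1a* at 188, 104 and 118 CPM, a log2 ratio of -0.76 (-0.99 to -0.56). Cluster 20, led by the granule genes *lyz* and *npsn*, had *ifitm1* at 3.62, 23.0 and 20.4 CPM, the opposite order. For the class as a whole *ifitm1* was at 129, 135 and 101 CPM and the repeats fell on either side of gControl. The 17 macrophage markers summed to 251, 220 and 204 CPM in neutrophil-like cells, with 1 to 3 of them at 0, and their part was not tested.

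Outside leukocytes *mxf* did not follow this. In epidermis-like cells *mxf*, *mxa* and *ifitm1* were at least 2-fold higher in gSema4ab and 0 of the 6 genes with enough UMIs were lower, against 11.2% higher and 7.02% lower of all genes tested in that class. *mxf* was at 2.12, 6.49 and 5.08 CPM (33, 56 and 44 UMIs), a log2 ratio of 1.44 (0.87 to 2.06), *mxa* at 0.39, 0.81 and 1.39 CPM (6, 7 and 12 UMIs) and *ifitm1* at 0.83, 3.13 and 4.27 CPM (13, 27 and 37 UMIs). The *mxf* and *ifitm1* levels are a small fraction of those in leukocytes. *mxa* was scarce in both, at 0.80 CPM (15 UMIs) in gControl macrophage/microglia-like cells. The class held 2 clusters in different proportions between the libraries, with 817, 364 and 353 cells in cluster 6 and 395, 528 and 521 cells in cluster 8. *mxf* had log2 ratios of 1.55 (0.82 to 2.33) in cluster 6 and 0.79 (-0.17 to 1.98) in cluster 8, and *ifitm1* 2.51 (1.43 to 3.87) and 0.95 (-0.36 to 2.77). Cluster 8 held 4, 6 and 11 of the *mxa* UMIs, a log2 ratio of 0.60 (-0.93 to 2.72), so within cluster 8 no interval of these genes lay above 0. The macrophage markers in epidermis-like cells summed to 18.0, 36.7 and 30.3 CPM, so they were also higher in gSema4ab, and cell depth was lower there, with medians of 12815.5, 7699 and 8442.5 UMIs. The part of either was not tested.

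*ifitm1* was the gene of the set that was higher in fibroblast-like and smooth muscle-like cells. In fibroblast-like cells it was at 116, 419 and 289 CPM (2608, 9168 and 6472 UMIs), a log2 ratio of 1.60 (1.54 to 1.66). In smooth muscle-like cells, marked by *acta2*, *tagln* and *myh11a*, it was at 93.1, 654 and 751 CPM (121, 891 and 1012 UMIs), a log2 ratio of 2.91 (2.65 to 3.19). Both repeats were above gControl in each class. *isg15* in fibroblast-like cells was counted in 24, 13 and 10 UMIs, a log2 ratio of -1.01 (-1.94 to -0.16) that was -0.77 and no longer called with TMM scaling. The call rule marked 1 of 6 genes as higher (*ifitm1*) and 1 as lower (*isg15*) in fibroblast-like cells, against 2.35% and 7.30% of all genes, and 1 of 2 as higher in smooth muscle-like cells, against 3.39%.

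All 6 fibroblast-like clusters had the same direction with different size. The ratio was largest in cluster 5, where *ifitm1* was at 40.0, 487 and 361 CPM, a log2 ratio of 3.40 (3.19 to 3.63). Cluster 7 had it at 30.6, 188 and 196 CPM and cluster 9 at 57.0, 356 and 302 CPM. The smallest ratio was in cluster 2, at 164, 314 and 193 CPM, a log2 ratio of 0.63 (0.52 to 0.73), where gSema4abR2 lay close to gControl.

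More cells carried it. After thinning, an *ifitm1* UMI was found in 6.07% (5.21 to 7.04), 16.1% (14.7 to 17.5) and 13.5% (12.3 to 14.9) of fibroblast-like cells, and in 6.82% (3.87 to 10.996), 23.4% (18.4 to 29.1) and 28.2% (22.6 to 34.2) of smooth muscle-like cells. Red blood cell-like cells had 0.30%, 0.53% and 0.25%. Macrophage/microglia-like cells had 17.0%, 9.99% and 8.81%. The class that led in gControl was thus below fibroblast-like and smooth muscle-like cells in gSema4abR1 and gSema4abR2. The macrophage markers in fibroblast-like cells summed to 51.0, 123 and 111 CPM, with at most 1 of 17 at 0, and their part was not tested.

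In some other classes the repeats lay far apart in *ifitm1*. In xanthophore-like cells it was at 11.0, 180.3 and 4.68 CPM, and 96 of the 125 UMIs of gSema4abR1 lay in 1 cell. In basal epidermis-like cells it was at 1.76, 12.5 and 2.42 CPM, with 86 of 147 UMIs of gSema4abR1 in 1 cell. This gene was the 1 of 7 called higher in basal epidermis-like cells, with 0 lower, against 3.59% and 6.86% of all genes, and its log2 ratio of 2.07 was 1.29 without the top cell of each library. In muscle-like cluster 15 both repeats were lower, at 11.603, 7.28 and 5.19 CPM, a log2 ratio of -0.88 (-1.62 to -0.15). Unnamed cluster 23, led by *podxl* and *aqp1a.1*, had the highest level of any cluster, at 958, 1454 and 987 CPM.

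**Figure D4:**
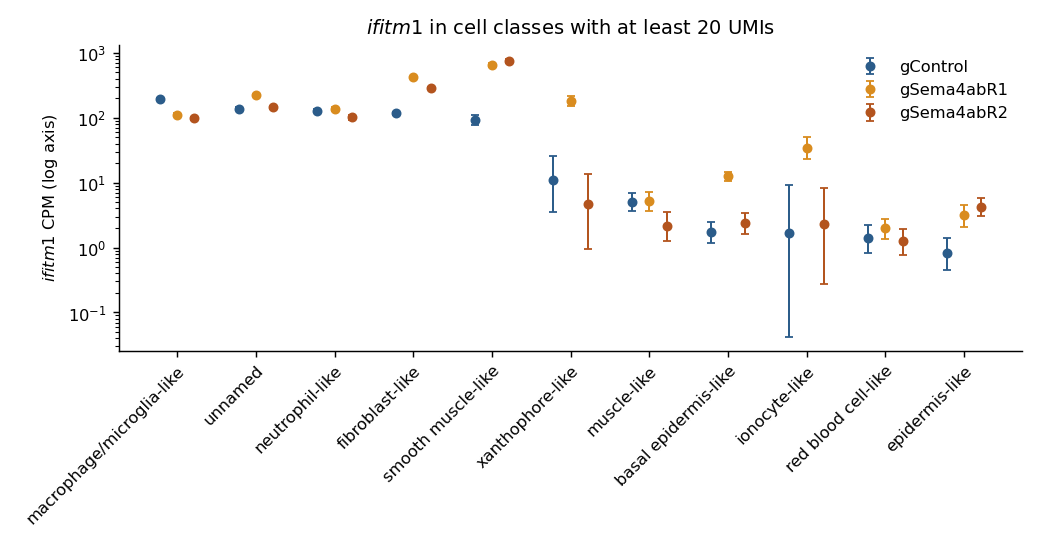
*ifitm1* level in CPM (log axis) in each cell class with at least 20 *ifitm1* UMIs, by library, with exact 95% Poisson intervals and classes ordered by gControl. Both repeats are below gControl in macrophage/microglia-like cells (112 and 97.8 against 195 CPM) and above it in fibroblast-like (419 and 289 against 116 CPM) and smooth muscle-like cells (654 and 751 against 93.1 CPM).

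*mxc* had 2 homes that differed. In basal epidermis-like cells it was at 33.5, 31.6 and 31.8 CPM, a log2 ratio of -0.08 (-0.24 to 0.08) that held 0. Cluster 13, led by the fin fold genes *and1* and *and3*, had 57.8, 59.0 and 58.0 CPM, and cluster 10 had 14.4, 14.2 and 14.9 CPM. In macrophage/microglia-like cells, as given above, both repeats were lower. The difference between the classes was not tested.

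*stat1a* was lower in gSema4ab in all 15 named classes, with log2 ratios of -1.23 to -0.11, and the interval lay below 0 in 11 of them. With TMM scaling it was lower in 14, and notochord-like cells turned to 0.11. Among those 14, smooth muscle-like cells were at -0.01 and macrophage/microglia-like cells at -0.13. Without TMM scaling *stat1a* was at -0.11 in notochord-like cells, where the median of all genes was -0.18. The *stat1a* ratio fell short of 2-fold except in xanthophore-like cells, at 88.2, 41.8 and 32.7 CPM (40, 29 and 21 UMIs), where it was the 1 of 2 genes called lower, against 9.96% of all genes. In epidermis-like cells it was at 246, 140 and 141 CPM, a log2 ratio of -0.80 (-0.88 to -0.73) that was -0.70 in cluster 6 and -0.92 in cluster 8, and the thinned share of cells with a UMI was 39.8%, 24.3% and 24.5%. Epidermis-like cells held 36.0% of its UMIs in gControl, and their number was 1212, 892 and 874. Ionocyte-like cells had 531, 471 and 400.2 CPM.

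In red blood cell-like cells *stat1a* stood at 22.3, 15.8 and 14.8 CPM, a log2 ratio of -0.54 (-0.76 to -0.33), where the median of all genes was -0.30. In this class, which has the lowest *stat1a* level, the ratio thus had the same direction as in its main classes. With TMM scaling it was -0.22. *stat1b* was at 7.61, 5.60 and 2.97 CPM in basal epidermis-like cells, a log2 ratio of -0.82 (-1.23 to -0.46), and at 5.2, 7.18 and 9.24 CPM in epidermis-like cells, a log2 ratio of 0.66 (0.26 to 1.07). Epidermis-like cells held clusters 6 and 8 in different proportions between the libraries, as given above, and the part of that was not tested. *stat1b* was at 13.5, 12.4 and 11.69 CPM in cluster 8, a log2 ratio of -0.17 (-0.74 to 0.43). Its level was lower in cluster 6, at 3.43, 3.40 and 7.504 CPM. The log2 ratio in cluster 6 was 0.68 (0.07 to 1.28), with gSema4abR1 at gControl. In neuron-like cells *isg15* was the 1 of 2 genes called higher, at 2.44, 3.84 and 8.17 CPM (10, 16 and 33 UMIs), against 3.2% of all genes, and 15 of the 33 UMIs of gSema4abR2 lay in 1 cell. Neuron-like cluster 17 held 10, 6 and 33 of these UMIs, a log2 ratio of 0.71 (-0.32 to 1.87). There gSema4abR1 lay below gControl (-1.01) and gSema4abR2 above it (1.48).

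**Figure D5:**
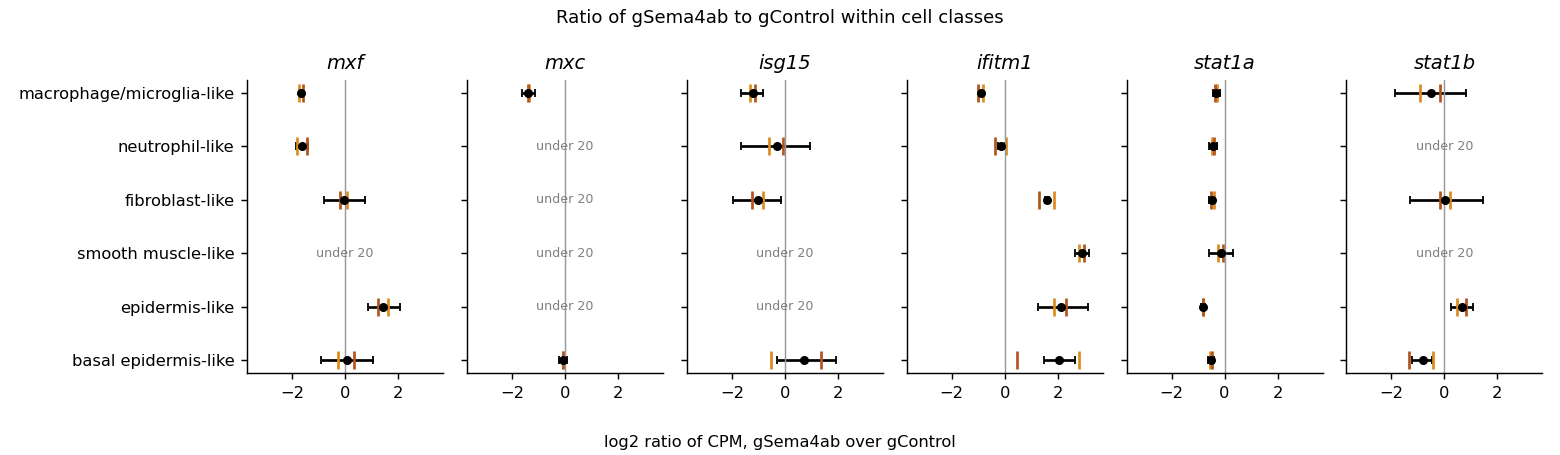
Log2 ratio of gSema4ab over gControl within 6 cell classes for 6 of the genes. Black points are ratios of the mean of both repeats with exact 95% intervals, orange and brown ticks are gSema4abR1 and gSema4abR2, and classes with under 20 UMIs are marked; *ifitm1* lies at -0.89 in macrophage/microglia-like cells and at 1.60 and 2.91 in fibroblast-like and smooth muscle-like cells.

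Cells with UMIs of 3 or more of the genes were scarcer in gSema4ab. They made up 245 of 12247 cells (2.00%, Clopper-Pearson interval 1.76 to 2.26) in gControl, 149 of 12079 (1.23%, 1.04 to 1.45) in gSema4abR1 and 114 of 11940 (0.955%, 0.788 to 1.15) in gSema4abR2. Such a count is a range on a score and no cell type. Of these cells 59.2%, 54.4% and 55.3% were macrophage/microglia-like, and 18.4%, 18.8% and 17.5% were basal epidermis-like. Within macrophage/microglia-like cells the share was 14.5%, 7.87% and 5.90%, and 0, 1 and 0 red blood cell-like cells qualified. After thinning, only 19, 4 and 6 cells of all classes remained. The most genes of the set in 1 cell were 6 in gControl and 5 in each repeat.

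Other genes of the pathway were taken from lists of 175 symbols, of which 130 were found once and 117 had enough UMIs. Of these, 9 were called lower and 3 higher, or 7.69% and 2.56%, close to the 7.39% and 2.21% of all genes, and their median log2 ratio was -0.31. Of the called genes, 7 of the 9 and 3 of the 3 passed 2-fold in each repeat. So the lists as a whole did not stand out from all genes over all cells.

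Among the ligands, 0 of 4 tested were called. *ifnphi1*, a virus-induced type I interferon, was at 0.60, 0.45 and 0.51 CPM, and *ifnphi2* at 0.16, 0.19 and 0.20 CPM. *ifnphi3* was at 1.89, 2.64 and 2.66 CPM, a log2 ratio of 0.48 (0.26 to 0.71). *ifng1*, the type II interferon, was at 0.26, 0.13 and 0.14 CPM, a log2 ratio of -0.91 (-1.70 to -0.18) on 32, 15 and 16 UMIs.

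Of the 6 receptor chains tested, 1 was called lower, beside 7.39% of all genes. *ifngr1l*, an interferon gamma receptor chain, was at 8.65, 3.77 and 4.39 CPM, a log2 ratio of -1.08 (-1.21 to -0.95), and *ifngr1* at 20.4, 15.8 and 16.8 CPM, a log2 ratio of -0.33. *crfb1* and *crfb2*, chains of the type I receptors, had log2 ratios of -0.31 and -0.34, *crfb4* -0.33 and *il10rb* 0.04.

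Of 15 JAK-STAT and IRF genes, 11 lay below 0 and 1 was called lower. Of all 25058 genes tested, 17109 lay below 0 and 7.39% were called lower, so these counts are not read as a shift of the list. *irf3*, which relays nucleic acid sensing in mammals, was at 1.76, 0.71 and 0.62 CPM, a log2 ratio of -1.40 (-1.72 to -1.10). *stat2* was at 30.7, 20.8 and 20.3 CPM, a log2 ratio of -0.58, and *irf9* was at -0.12 on the log2 scale. The kinases had ratios of -0.19 for *jak1*, 0.13 for *jak2a*, -0.30 for *jak2b* and -0.41 for *tyk2*. The interferon regulatory factors *irf1b* (-0.58), *irf2* (-0.41), *irf5* (-0.17), *irf2a* (-0.08) and *irf10* (-0.01) were below 0, while *irf1a* (0.73), *irf8* (0.31) and *irf7* (0.05), the factor that amplifies interferon production, were above it.

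The called genes of the other lists were scarce to moderate. *tlr22*, a fish Toll-like receptor for RNA, was at 9.07, 4.18 and 3.49 CPM. *gbp4*, a guanylate-binding protein gene, was at 2.74, 1.12 and 1.24 CPM, *rnf213b* at 2.02, 0.90 and 0.89 CPM, *ifit12* at 1.35, 0.62 and 0.55 CPM, *socs1b*, a feedback inhibitor, at 0.38, 0.17 and 0.14 CPM and *psmb13a*, a proteasome subunit gene, at 0.27, 0.10 and 0.09 CPM. All of these were lower in both repeats. Higher in both were the chemokine genes *cxcl20*, at 1.37, 3.79 and 4.77 CPM, and *ccl19a.2*, at 0.06, 0.63 and 0.39 CPM (7, 71 and 44 UMIs), and *ifit14*, at 0.12, 0.31 and 0.36 CPM.

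The same lists within leukocytes gave another picture in neutrophil-like cells. There 17 of 78 genes with enough UMIs (21.8%) were called lower and 0 higher, against 5.82% and 3.53% of all genes in the class, and their median was -0.45, beside -0.13. By contrast 5 of 101 (4.95%) were called lower and 1 higher in macrophage/microglia-like cells, where the background was 5.89% and 3.56%. In neutrophil-like cells *irf1b* was at 42.8, 18.2 and 12.2 CPM, *parp12a* at 36.2, 16.8 and 16.4 CPM and *gbp1* at 73.8, 43.5 and 27.7 CPM, and the RNA sensors *ifih1* and *dhx58* were at 9.23, 4.37 and 4.37 CPM and at 3.12, 0.70 and 0.36 CPM. These 5 genes were chosen after their values were seen. Their counts ran from 592, 249 and 152 UMIs for *gbp1* down to 25, 4 and 2 UMIs for *dhx58*. Ratios without the top cell of each library are not given for the list genes. In macrophage/microglia-like cells *rnf213a* was at 83.9, 38.6 and 43.7 CPM and *ifngr1l* at 14.1, 5.35 and 6.58 CPM.

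Pattern likeness was measured as Pearson r over the 44 clusters, of log2(CPM + 1) with libraries pooled, so clusters share libraries and depth. Most like the summed set were *ifitm1*, a member of it (r = 0.77), *b2ml* (0.75), *CR392002.1* (0.72), *cyp3c1* (0.72), *f3b* (0.72), *ier2a* (0.71), *pla2g4aa* (0.71), *dusp1* (0.71), *cnn2* (0.70) and *parp9* (0.69). By the same measure, added after values were seen, *mxf* was most like *si:dkey-187j14.7* (0.90), *si:dkey-183c2.4* (0.87), *CR450686.6* (0.85), *m17* (0.85) and *tnfb* (0.84), and *mxc* was most like *rab42b* (0.88) and *cldni* (0.88), the latter a marker of the basal epidermis list. Among pairs of the 10 genes the highest value was 0.59, for *mxc* with *stat1b*, and *mxf* with *mxc* gave 0.29, so the set did not share 1 pattern over clusters. *mxa*, *mxb*, *mxe* and *rsad2* had only 15 to 63 UMIs per library. Counting noise can lower r for genes so scarce, so low values for their pairs are not read.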

How the data were processed

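Whole trunk tissue around the lesion was profiled with 10x Genomics 3′ chemistry. The deposited matrices hold counts of UMIs per gene and barcode that the authors made with Cell Ranger 7.1.0 on GRCz11 with Ensembl annotation 109. The study's filters were applied: at least 200 genes, over 500 and under 50000 UMIs, under 20% mitochondrial UMIs and at most 20 UMIs per gene. The highest doublet scores, 0.8% for each 1000 deposited barcodes, were removed, leaving 12247, 12079 and 11940 cells with 122658355, 113423532 and 114267348 UMIs. The study also removed cells that expressed marker genes of another cell type. That step was not applied to the main values. With thresholds set here, 1132 of the 36266 cells would fall under it. Cells were clustered with Seurat 5.3.0 (CCA integration, 30 dimensions), leaving interferon genes out of the variable genes. Clusters were named from markers found in at least 10% of their cells and 3-fold above the other cells; these rules were settled after the leading genes were seen. Counts were summed per class and library. Log2 ratios carry 0.5 UMI per count and an exact conditional binomial interval, CPM an exact Poisson interval, shares a Clopper-Pearson interval, all at 95% and for counting error only. No test was run, because the repeats are technical. TMM factors came from edgeR 4.0.16. All members, lists and rules were chosen with earlier results of these data known. Named genes were the 10, the ligands, receptors and JAK-STAT and IRF genes with at least 20 UMIs, and list genes past 2-fold in each repeat. The list genes *mxd* and *mxg* were named in addition, as Mx genes. Likeness took the 10 highest r among genes with at least 200 UMIs.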

Additional observations from a re-analysis of the deposited data

Results flagged for a closer look

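Counting intervals of some genes excluded 0 in opposite directions in different cell classes, with both repeats on the same side in each class. The differences between the classes were not tested, since gControl is 1 library and the repeats were treated as 1 pool. *mxf* had a log2 ratio of gSema4ab to gControl of -1.66 in macrophage/microglia-like and -1.60 in neutrophil-like cells but 1.44 in epidermis-like cells, where the level was a small fraction of that in leukocytes. *ifitm1* was at -0.89 in macrophage/microglia-like cells and at 1.60 in fibroblast-like, 2.91 in smooth muscle-like, 2.12 in epidermis-like and 2.07 in basal epidermis-like cells. The basal epidermis-like value rests on 30, 147 and 31 UMIs, so mostly on gSema4abR1, and was 1.29 without the top cell of each library. In gControl *ifitm1* was at 0.83 CPM in epidermis-like and 1.76 CPM in basal epidermis-like cells. These levels are near the 1.39 CPM of red blood cell-like cells, the reference for free RNA, whose part was not tested. *isg15* was at -1.21 in macrophage/microglia-like and -1.01 in fibroblast-like cells and at 1.26 in neuron-like cells. In neuron-like cluster 17, however, the repeats fell on either side of gControl for *isg15*, at -1.01 and 1.48, on 10, 6 and 33 UMIs. *stat1b* was at -0.82 in basal epidermis-like and 0.66 in epidermis-like cells. Epidermis-like cells hold clusters 6 and 8 in different proportions between the libraries (817, 364 and 353 cells against 395, 528 and 521). *stat1b* was at -0.17 in cluster 8 and at 0.68 (0.07 to 1.28) in cluster 6, where gSema4abR1 was at 0.01. In the same cluster 8 *mxf* was at 0.79 and *ifitm1* at 0.95, with intervals that held 0.

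In the barcodes that the filters rejected, which enter no comparison of the 10 genes in the report, *isg15* had 6, 10 and 25 UMIs (0.88, 1.88 and 4.19 CPM), a log2 ratio of 1.72 (0.56 to 3.36). There *mxc* was at 25.9, 6.78 and 6.86 CPM. *mxf* had 28, 21 and 20 UMIs in these barcodes, a log2 ratio of -0.16 (-0.90 to 0.58). The log2 ratio was -1.87 for *stat1b*, -0.70 for *stat1a* and -0.06 for *ifitm1*.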

How the results depend on the processing

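With 3 libraries, 2 of them technical repeats, no value has a check over animals, and a gene under 20 UMIs gave no ratio that was read. No paired analysis was possible because gControl is a single library. The median log2 ratio of the 10 genes over all cells, -0.40, was -0.26 with doublets kept and -0.19 with TMM scaling. Leaving out 1 repeat gave 1 to 2 of the 10 genes lower (2, with *mxb*, without gSema4abR2) and 3 to 6 list genes higher (6 without gSema4abR2). At 1.5-fold, 5 of the 10 genes were lower and 1 higher, and 29 list genes lower and 7 higher, and with no minimum beyond 1 UMI 7 list genes were higher. No share of all genes under these changed rules is set beside these counts. They show only how the calls move with the rule and are not read as a result about the genes. The summed level in gControl macrophage/microglia-like cells, 408 CPM, was 424 CPM at resolution 2. Their median ratio, -0.89, was -0.72 with TMM scaling and -1.10 to -0.93 without 1 repeat. The log2 ratio of the shares of cells with 3 or more of the genes, -0.87, was -1.75 after thinning, -0.22 for 2 or more, -1.60 for 4 or more and -1.42 without *stat1a* and *stat1b*. *ifitm1* in neutrophil-like cells, at -0.13, was -0.35 without gSema4abR1, turned to 0.067 without gSema4abR2 and was 0.14 as thinned shares. Of 215 other values for single genes, 175 stayed within the interval of the value reported, 38 moved and 2 reversed. Why these moved or reversed was not tested. The top-cell, split, thinned-share and likeness alternatives within classes were chosen after seeing the data.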
